A study of Mus musculus with 12 samples.

Results

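The repressive chromatin mark H3K27me3 (histone H3 trimethylated at lysine 27) was examined at 10 genes that mark T cells and Langerhans cells, the immune cells that live among the keratinocytes of mouse epidermis. The genes were chosen by name: Cd3d, Cd3e, Cd3g, Cd4, Cd8a, Cd8b1, Cd28 and Ctla4 for T cells, and Cd207 and H2-Aa for Langerhans cells. All 10 were found among the 21631 protein-coding genes of chromosomes 1 to 19 and X, and all 10 are autosomal. The mark was mapped by CUT&RUN (an antibody leads a nuclease to its target, and the chromatin around it is cut out and sequenced) in single-cell suspensions of epidermis from female mice. The Utx-cKO group (Cre+; Utx fl/fl) had 3 H3K27me3 and 3 IgG libraries, and the WT group (Cre-; Utx fl/fl) had the same numbers. Animals of both groups carried the floxed Utx alleles, and Krt14-Cre, driven by the promoter of a basal keratinocyte keratin, removed Utx (Kdm6a) in the Utx-cKO group only in tissue that expresses keratin 14. The peak lists pool the animals of a genotype, so each genotype gave 1 value per gene, differences have no replicate error, and the depth is unknown.

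H3K27me3 is placed by Polycomb repressive complex 2 and is typical of genes that a cell lineage keeps silent, and Utx is a demethylase of this mark. The Cd3 genes encode the signalling chains that assemble with the T cell receptor, Cd4 and Cd8 are its co-receptors, Cd28 gives the costimulatory signal and Ctla4 opposes it. Langerin, the product of Cd207, is the lectin that forms the Birbeck granules of Langerhans cells, and H2-Aa encodes a chain of the MHC class II molecule with which these cells present antigen. Keratinocytes form the bulk of an epidermal suspension, and they normally do not express the genes that define T cells and Langerhans cells. These immune cells come from the blood-forming lineage, not from keratinocytes. The share of cells that carry the mark and the amount carried per cell cannot be told apart in such a suspension.

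The 10 genes fell into 3 kinds, which were the same in both genotypes. The 3 Cd3 genes lay inside H3K27me3 peaks, Cd207 had peaks close by but none on it, and the other 6 had none within 2 kb. A gene was called marked when a peak overlapped its body or the 2 kb on either side, and by this rule the same 4 genes (Cd3d, Cd3e, Cd3g and Cd207) were marked in both genotypes. Among all protein-coding genes the rule marked 19.5% in Utx-cKO and 18.0% in WT, and among autosomal ones 17.6% and 16.1%. Many peaks of these female mice lay on the X chromosome: 7033 of 8914 peaks in Utx-cKO and 6126 of 7826 in WT were autosomal. No share was computed for X-linked genes alone. The X-linked genes named below (Sh2d1a, Foxp3 and Cd40lg) therefore have no matching background. Genes of the length of these 10 (5080 to 26972 bp) were marked in 14.5% of cases in Utx-cKO and 12.8% in WT. The 4 marked genes are not 4 independent observations, since the Cd3 genes are neighbours and Cd3d and Cd3g share a peak. Of all autosomal genes, 14.6% were marked in both genotypes and 4.49% in a single one, so that 0 of 10 genes marked in a single genotype is near the background.

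The Cd3 genes lie side by side on chromosome 9 (all positions are mm10, GRCm38): Cd3g from 44969572 to 44980431, Cd3d from 44981769 to 44987052 and Cd3e from 44998735 to 45009663. Cd3g and Cd3d are transcribed away from each other from starts that are 1355 bp apart. The 300 bases around these starts are shown because the peaks cover them in both genotypes, in each case 5′ to 3′ along the transcript, from RefSeq (GRCm38.p6), with CG dinucleotides in capitals. They are Cd3g at chr9:44980382-44980681 (minus strand), Cd3d at chr9:44981536-44981835 (plus strand) and Cd3e at chr9:45009562-45009861 (minus strand).
Cd3g: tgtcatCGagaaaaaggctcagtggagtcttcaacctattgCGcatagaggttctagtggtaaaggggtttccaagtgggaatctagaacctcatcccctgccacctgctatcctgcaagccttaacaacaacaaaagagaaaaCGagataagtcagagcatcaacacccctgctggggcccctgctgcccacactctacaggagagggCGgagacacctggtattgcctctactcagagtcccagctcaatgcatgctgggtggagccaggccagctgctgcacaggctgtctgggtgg
Cd3d: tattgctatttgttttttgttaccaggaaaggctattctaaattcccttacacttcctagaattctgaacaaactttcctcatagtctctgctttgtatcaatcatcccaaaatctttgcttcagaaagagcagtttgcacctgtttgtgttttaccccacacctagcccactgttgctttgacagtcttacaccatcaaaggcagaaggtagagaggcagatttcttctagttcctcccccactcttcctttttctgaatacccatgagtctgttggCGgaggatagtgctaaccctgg
Cd3e: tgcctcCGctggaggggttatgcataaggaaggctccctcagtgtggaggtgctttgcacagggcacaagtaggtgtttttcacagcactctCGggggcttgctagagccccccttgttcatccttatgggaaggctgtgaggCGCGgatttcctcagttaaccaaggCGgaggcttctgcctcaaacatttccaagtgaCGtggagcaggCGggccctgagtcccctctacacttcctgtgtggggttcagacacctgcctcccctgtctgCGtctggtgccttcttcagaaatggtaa

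Promoters of these genes were not rich in CG dinucleotides. Cd3g held 4 in 300 bases, Cd3d held 1 and Cd3e held 8. The median over all 32817 RefSeq promoters of this length was 7 (interquartile range 3 to 20), and 14.1% of them held as few as Cd3d, 38.1% as few as Cd3g and 54.2% as few as Cd3e. Searched on both strands, the word CAGCTG (an E-box, its own reverse complement) stood in the Cd3g promoter once and in neither of the others, against 16.3% of all promoters. The word TGTGGT, which Runx factors bind, was in none of the 3, against 16.8% of all promoters. A word found or not found describes only these letters in this window.

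One peak covered Cd3g and Cd3d together, and a second covered Cd3e. The first peak ran from 44968651 to 44988000 (19350 bp) in Utx-cKO and from 44969951 to 44992400 (22450 bp) in WT. The second ran from 44993201 to 45013850 (20650 bp) in Utx-cKO and from 44994151 to 45011150 (17000 bp) in WT. In Utx-cKO the Cd3g and Cd3d peak thus reached less far towards Cd3e and the Cd3e peak was wider than in WT, leaving 5200 bp between them, against 1750 bp in WT. Added together, the 2 peaks covered 40000 bp in Utx-cKO and 39450 bp in WT, of which 35050 bp was common to both lists, or 87.6% of the Utx-cKO length and 88.8% of the WT length. Cd3d and Cd3e were covered from border to border in both genotypes, and Cd3g over 100% of its body in Utx-cKO and 96.5% in WT, where the peak began inside the gene. Among all marked autosomal genes, the median coverage of the body was 26.4% in Utx-cKO and 27.2% in WT, and full coverage occurred in 16.0% and 15.2%. These values are over genes of all lengths and include genes marked through a flank alone. None was computed for genes as short as the Cd3 genes.

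The domain stopped at the Cd3 genes on both sides. Its lower edge lay 3036 bp from Ube4a, a ubiquitin ligase gene, in Utx-cKO and 4336 bp in WT, and its upper edge lay 28494 bp from Mpzl2, a gene for an adhesion protein of epithelia, in Utx-cKO and 31194 bp in WT. Ube4a and Atp5l below, and Mpzl2, Mpzl3 and Jaml above, had no peak in either list. Kmt2a, an H3K4 methyltransferase gene farther below, had a peak in Utx-cKO alone.

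**Figure D1:**
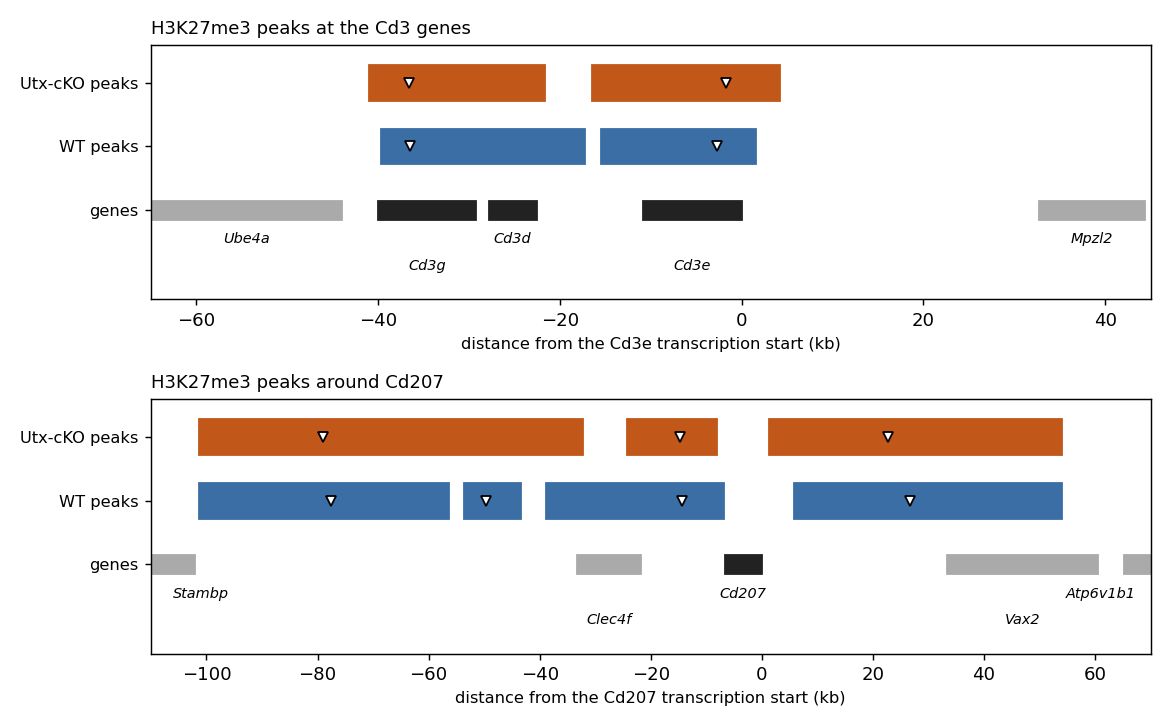
H3K27me3 peaks (bars, Utx-cKO above WT) and genes (dark bars for the 10 genes examined, grey for neighbours) along the chromosome, in kb from the transcription start of Cd3e (upper panel) and Cd207 (lower panel). White triangles mark the place of each peak's highest signal. The Cd3 genes sit inside peaks in both genotypes, while Cd207 sits in a stretch without one, 9350 bp long in Utx-cKO and 12600 bp in WT.

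By signal, the Cd3 peaks were of middle to upper rank. Each peak carries a total signal (coverage summed over the peak) and a maximum signal (the highest coverage in it), as the authors' peak caller gave them, and ranks are within a genotype's own list because the scales may differ. The peak over Cd3g and Cd3d stood at percentile 66.2 of 8914 peaks by total signal in Utx-cKO and 66.5 of 7826 peaks in WT. By maximum signal it stood at percentile 78.9 in Utx-cKO (26.5) and 72.3 in WT (24.1). The Cd3e peak stood lower, at percentile 63.0 in Utx-cKO and 55.0 in WT by total signal, and at 63.0 and 57.5 by maximum signal (16.3 and 15.8). Its rank by signal per base went the other way, at percentile 55.4 in Utx-cKO and 61.4 in WT, where the peak was narrower.

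The highest signal of the first peak fell at almost the same place in both genotypes. It lay inside Cd3g, 7380 bp downstream of the transcription start in Utx-cKO and 7330 bp in WT, which are adjacent 50 bp bins. Cd3d, on the same peak, does not hold the maximum in either list. In the second peak the maximum lay inside Cd3e, 1660 bp downstream of its start in Utx-cKO and 2660 bp in WT.

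Cd207 (chromosome 6, 83671207 to 83677857) was marked only through the 2 kb beside it. No base of the gene body was covered in either list. In Utx-cKO, peaks lay on both sides, ending at 83669800 and beginning at 83679151, and 12.2% of the gene with its flanks was covered. In WT, a single peak reached the window, ending at 83671100, and 17.8% was covered. The nearest peak was 1294 bp from the gene in Utx-cKO, on the side of the transcription start, and 107 bp in WT, on the opposite side, where the next peak beyond the start was 5844 bp away. Genes marked through a flank alone made up 13.2% of the marked autosomal genes in Utx-cKO and 12.1% in WT. With the gene body alone, Cd207 was unmarked in both genotypes, with 1 kb on either side it was marked in WT alone, and within 2 kb of the transcription start in Utx-cKO alone, so the difference between genotypes at Cd207 turns with the window. The 300 bases around its start (chr6:83677808-83678107, minus strand, RefSeq GRCm38.p6, CG in capitals) are shown as the stretch that no peak covered, beside the covered Cd3 starts above. They hold 2 CG dinucleotides and neither CAGCTG nor TGTGGT.
Cd207: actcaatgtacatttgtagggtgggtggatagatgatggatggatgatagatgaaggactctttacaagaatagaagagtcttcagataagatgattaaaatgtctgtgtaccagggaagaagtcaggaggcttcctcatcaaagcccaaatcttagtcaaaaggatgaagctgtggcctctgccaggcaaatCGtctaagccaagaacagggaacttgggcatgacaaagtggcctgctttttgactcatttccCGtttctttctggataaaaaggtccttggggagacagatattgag

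The peaks on both sides of Cd207 lie over other genes. The one above covered 76.5% of Vax2, a homeobox gene of eye development, in Utx-cKO and 76.7% in WT, and was among the strongest of either list (52800 bp, percentile 99.6, maximum signal 63.7 in Utx-cKO, and 48300 bp, percentile 99.6, maximum 64.4 in WT). Its maximum lay 22644 bp from Cd207 in Utx-cKO and 26744 bp in WT. The peak below reached over Clec4f, which encodes a C-type lectin known from Kupffer cells of the liver. It was 16250 bp wide at percentile 59.7 in Utx-cKO and 32050 bp wide at percentile 74.4 in WT. In Utx-cKO another peak, from 83576601 to 83645700 (69100 bp, percentile 95.4), reached the lower end of Clec4f, and WT peaks covered 89.6% of it. Clec4f was covered by peaks over 32.2% of its body in Utx-cKO and 100% in WT. The Utx-cKO peak of 16250 bp lay wholly within the WT peak of 32050 bp, of which 71.5% was covered by Utx-cKO peaks. Leaving out the peaks over Vax2, Cd207 still had the lower peak within 2 kb in both lists. Of the other near neighbours, Stambp, below Clec4f, had 1 peak in its window in each list. Actg2 farther below, and Atp6v1b1 and Ankrd53 above Vax2, had none in either list.

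All peaks at these genes were found in both lists. The 4 Utx-cKO peaks were covered by WT peaks over 82.3% to 100% of their length, and the 3 WT peaks by Utx-cKO peaks over 71.5% to 100%. Over the whole lists, 78.4% of Utx-cKO peaks and 88.0% of WT peaks shared at least 1 bp with a peak of the other genotype, and the median coverage of a peak by the other list was 85.5% in Utx-cKO and 89.4% in WT.

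Cd4, Cd28 and Ctla4 had no peak nearby. Cd4 (chromosome 6, 124864693 to 124888247) had none within 60 kb, and its nearest peak was 102154 bp away in Utx-cKO and 102554 bp in WT. Cd28 (chromosome 1, 60746388 to 60773359) was the most distant of the 10, at 224242 bp in Utx-cKO and 224292 bp in WT. Ctla4 (chromosome 1, 60909025 to 60915832) lay 81769 bp from a peak in Utx-cKO and 81819 bp in WT. The peak nearest to both Cd28 and Ctla4 was the one at the far end of Icos, the third receptor gene of this cluster.

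**Figure D2:**
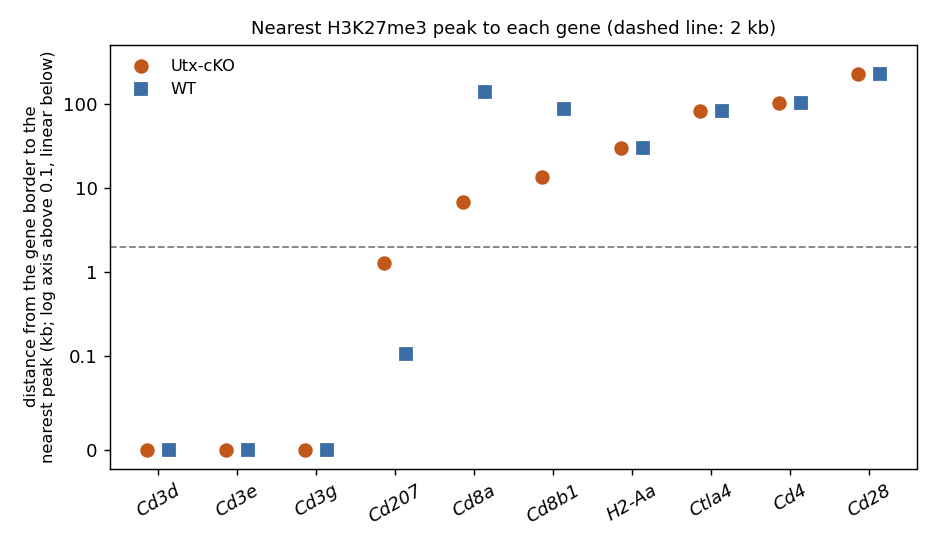
Distance in kb from the border of each gene to the nearest H3K27me3 peak (circles Utx-cKO, squares WT). The vertical axis is logarithmic above 0.1 kb and linear below it, and 0 means that a peak overlaps the gene. The Cd3 genes are at 0, Cd207 lies under the 2 kb line, and Cd8a and Cd8b1 are nearer to a peak in Utx-cKO than in WT.

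Cd8a and Cd8b1, neighbours on chromosome 6 (71373427 to 71379171 and 71322788 to 71337492), were the members whose distance to the nearest peak differed most between the lists. In Utx-cKO a peak lay between them, from 71351101 to 71366550 (15450 bp), 6877 bp from Cd8a and 13609 bp from Cd8b1. It overlapped no WT peak, and the nearest WT peak was 137877 bp from Cd8a and 87238 bp from Cd8b1. The Utx-cKO peak was a weak one, at percentile 15.1 of its list by total signal and 33.4 by maximum signal (10.4). Among the members without a peak within 2 kb, Cd8a was therefore the nearest to one in Utx-cKO, and in WT that was H2-Aa.

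H2-Aa (chromosome 17, 34282744 to 34287823) lay 29628 bp from the nearest peak in Utx-cKO and 29528 bp in WT. That peak began just beyond H2-Eb1 and reached into H2-Eb2, both class II genes, at percentile 33.5 in Utx-cKO and 28.0 in WT. A second peak over the far part of H2-Eb2 stood at percentile 57.4 in Utx-cKO and 34.2 in WT. H2-Ab1, the partner of H2-Aa in the class II molecule, had no peak in either list.

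**Figure D3:**
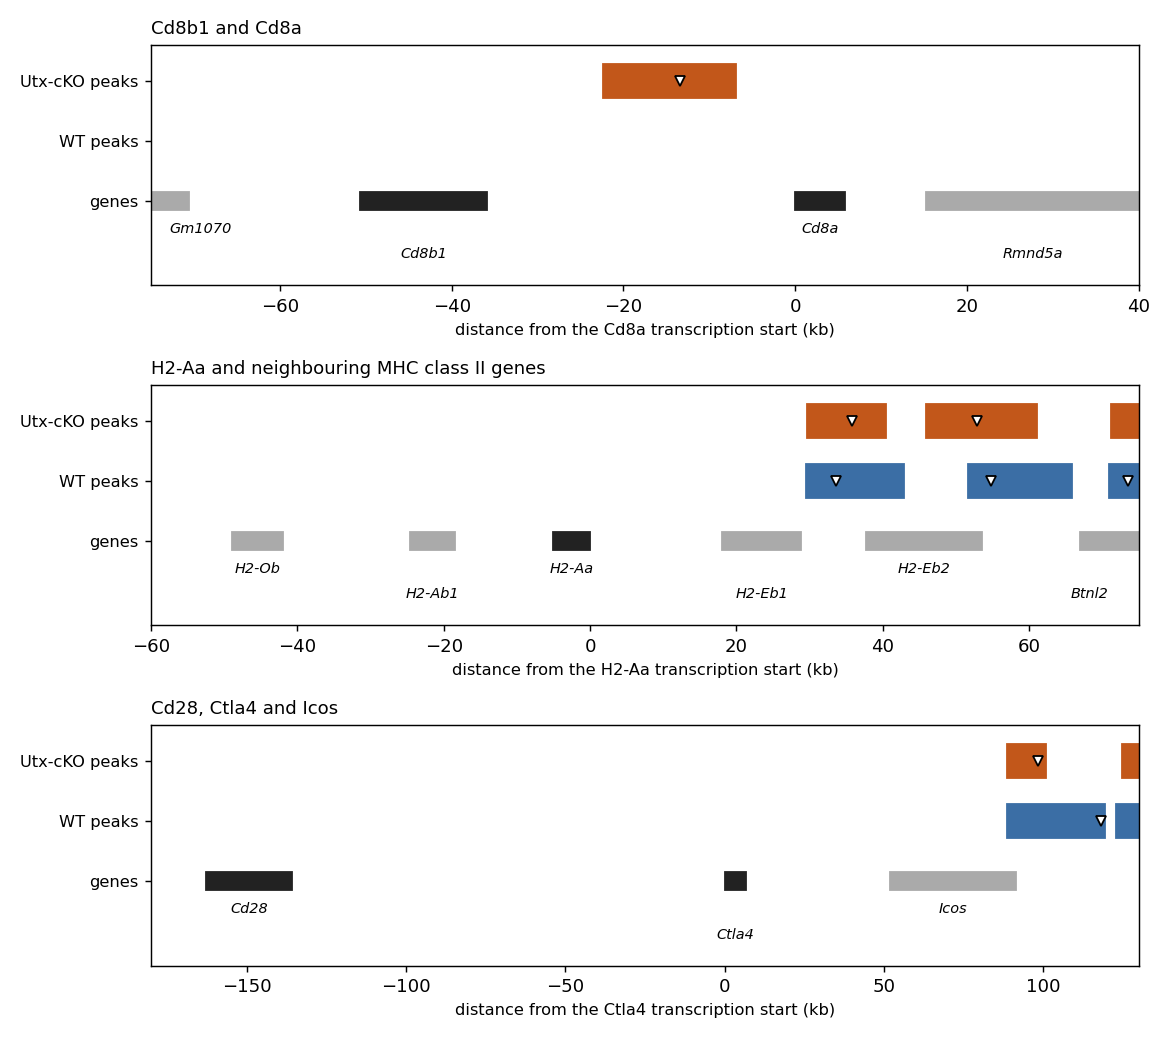
Peaks (Utx-cKO above WT) and genes around the members that were not marked, in kb from the transcription start of Cd8a, H2-Aa and Ctla4; white triangles mark the highest signal of a peak. A peak between Cd8b1 and Cd8a appears in Utx-cKO alone, and the peaks near H2-Aa and Ctla4 begin 29.5 kb and more beyond these genes in both genotypes.

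Genes of the same pathways, taken from 9 further lists, show where the marked members stand. Among 25 genes of T cell receptor signalling and T cell identity, the Utx-cKO list marked 3 and the WT list 4, 3 of them in both, which is no more than the autosomal background. Cd247, which encodes the zeta chain of the same receptor complex, was the strongest autosomal case, with a peak of 45250 bp at percentile 94.2 in Utx-cKO and 51050 bp at percentile 93.8 in WT, inside the gene (chromosome 1, 165779952 to 165871153). Ptprc, the leukocyte antigen CD45, had a peak at percentile 42.6 in Utx-cKO and 33.0 in WT. The X-linked adaptor gene Sh2d1a had its strongest peak at percentile 85.2 in Utx-cKO and 91.2 in WT. These were different peaks, from 42450101 to 42502600 in Utx-cKO and from 42506751 to 42566800 in WT. Ubash3a, a negative regulator of receptor signalling, was marked in WT alone, at percentile 21.9. Zap70, Lck and Lat, the kinases and the adaptor that act directly after the receptor, named here after their values were seen, were unmarked in both lists.

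Of 18 transcription factors of the T lineage, 14 were marked in the Utx-cKO list and 14 in the WT list (77.8% in each), 13 of them in both. Among all protein-coding genes the shares were 19.5% and 18.0%. Ets1, a lymphoid factor, had the widest peaks of this list, 60750 bp at percentile 92.9 in Utx-cKO and 100650 bp at percentile 96.8 in WT. Runx3, which acts in CD8 T cells and Langerhans cells, had a peak at percentile 98.2 in Utx-cKO and 98.4 in WT, and Eomes, a T-box factor of effector cells, at 98.7 and 98.6. Runx1 held 7 peaks in Utx-cKO and 5 in WT, the strongest at percentiles 83.0 and 88.3 and at different places. Foxp3, the X-linked regulatory T cell factor, was marked in Utx-cKO alone, at percentile 46.8, by a peak that WT peaks covered over 73.8% of its length. Rag2, a recombinase gene of lymphocyte precursors, was marked in WT alone, at percentile 40.3, while its neighbour Rag1 was marked in both. Unmarked in both lists were Bcl11b, Tcf7 and Zbtb7b. These genes are longer (median 39509 bp) than the 10 members (8834 bp), and no background share was computed for genes of that length. Several of the factors also act in tissues outside the T lineage.

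Of 15 genes of the CD28 family and its ligands, the Utx-cKO list marked 4 and the WT list 4 (26.7% in each), 3 of them in both. Among all protein-coding genes the shares were 19.5% and 18.0%. The peak at Icos, an inducible costimulator, was 12100 bp wide at percentile 27.8 in Utx-cKO and 30850 bp wide at percentile 58.8 in WT, and covered about as much of the gene with its flanks (10.8% and 10.7%). Cd86, a ligand of both Cd28 and Ctla4, had its strongest peak at percentile 72.4 in Utx-cKO and 12.3 in WT, at different places, and WT peaks that ended short of the window covered 72.7% of the Utx-cKO one. The X-linked Cd40lg, a ligand on helper T cells, had its strongest peak at percentile 94.1 in Utx-cKO and 94.8 in WT. The Utx-cKO one began just beyond the gene, while the WT one covered the gene with its flanks. Btla, an inhibitory receptor, was marked in Utx-cKO alone (percentile 4.0) and Pdcd1lg2, a ligand of the receptor PD-1, in WT alone (percentile 15.8), neither peak overlapping the other list. Of 14 genes of the MHC class II pathway, H2-Eb1 and H2-Eb2 were marked in both lists and no other, a share of 14.3% that is near the background.

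**Figure D4:**
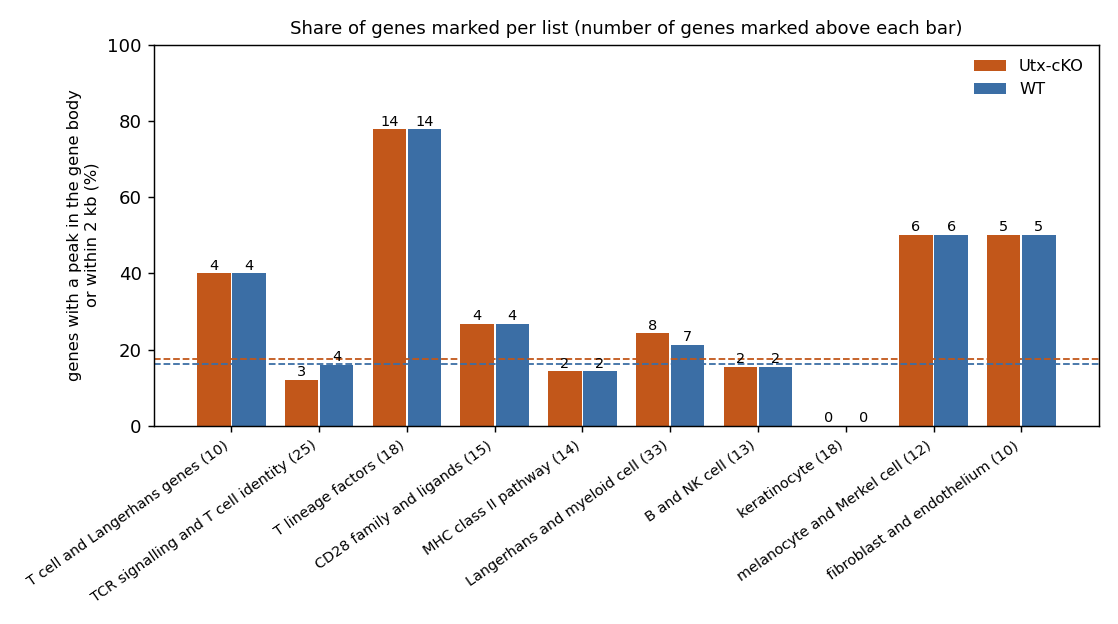
Share of genes with an H3K27me3 peak in the gene body or within 2 kb, in percent, for the 10 genes and 9 further lists (number of genes in parentheses; Utx-cKO bars left of WT bars, with the number marked above each). Dashed lines give the share of all autosomal protein-coding genes, 17.6% in Utx-cKO and 16.1% in WT.

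Of 33 genes of Langerhans and other myeloid cells, the Utx-cKO list marked 8 (24.2%) and the WT list 7 (21.2%), 6 of them in both. The autosomal shares were lower, at 17.6% and 16.1%, and the difference was not tested. Besides Clec4f, the genes marked in both included Zbtb46, a dendritic cell factor, whose strongest peak stood at percentile 85.3 in Utx-cKO and 85.2 in WT, Irf8, a myeloid factor (64.8 and 68.8), and Flt3, a growth factor receptor of dendritic cell precursors (73.2 and 67.6). Marked in Utx-cKO alone were Ccr6, a chemokine receptor, and Csf2ra, a GM-CSF receptor chain, at percentiles 17.1 and 18.1, and both peaks overlapped no WT peak. Clec9a, a lectin of cross-presenting dendritic cells, was marked in WT alone, at percentile 57.6, and 49.4% of that peak was covered by Utx-cKO peaks.

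**Figure D5:**
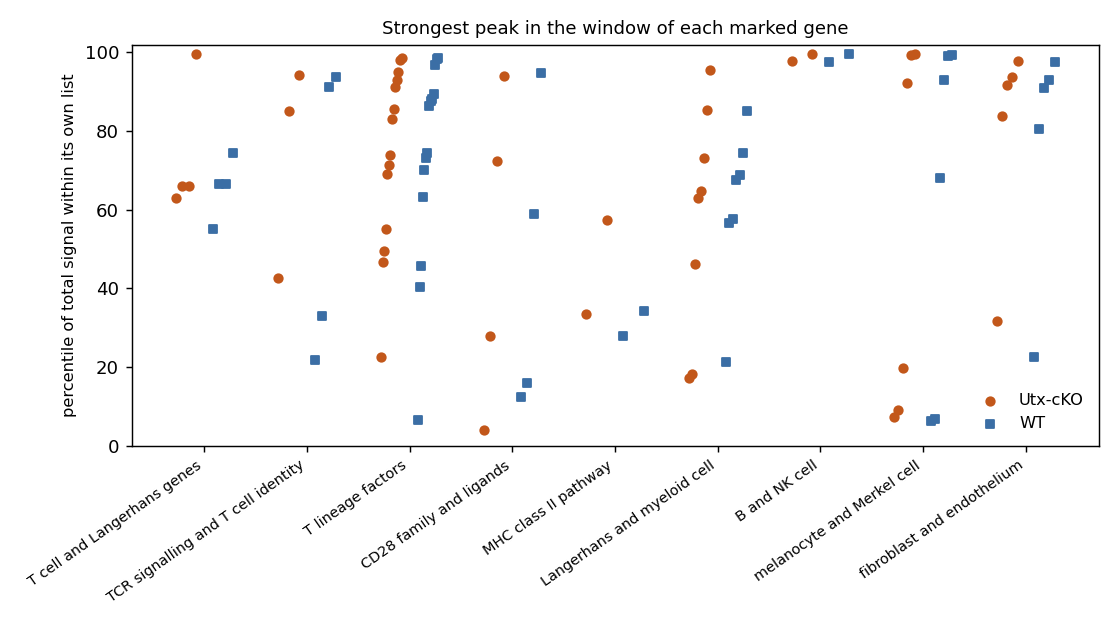
Percentile of total signal, within its own list, of the strongest peak in the window of each marked gene (circles Utx-cKO, squares WT); horizontal spread within a group only separates points. The Cd3 genes lie between percentiles 55.0 and 66.5. T lineage factors lie on both sides of them, from 22.6 (Sox13) to 98.7 (Eomes) in Utx-cKO and from 6.5 (Tbx21) to 98.6 (Eomes) in WT. The Utx-cKO point at 99.6 among the members is Cd207, whose window the Vax2 peak enters.

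Other cell types give the range of the measure. None of 18 keratinocyte genes, Krt5, Krt14 and Trp63 included, was marked in either genotype. Of 13 B and NK cell genes, Pax5 and Ebf1, factors of B cells, were marked in both lists, with peaks at percentiles 99.7 and 97.8 in Utx-cKO and 99.7 and 97.5 in WT. Of 12 melanocyte and Merkel cell genes 6 were marked in both, and of 10 fibroblast and endothelial genes 5 were marked in both. The share of all autosomal genes was 17.6% in Utx-cKO and 16.1% in WT.

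Promoter sequences were matched for 7 of the 10 members, all but Cd4, Cd8b1 and Cd28. The 9 T lineage factors that were marked in both lists and have an entry in the promoter table held a median of 21 CG dinucleotides per 300 bases, against 4, 1 and 8 in Cd3g, Cd3d and Cd3e. Marked genes with few CG dinucleotides also occurred in the lists nearest to the members, since Cd247 and Ptprc held 3 each, and the 2 marked MHC class II genes had a median of 0.5. Among members without a peak, Cd8a and H2-Aa held 3 each and Ctla4 held 8, so the CG count did not separate marked from unmarked members.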

How the data were processed

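Per the file headers, the deposited lists hold SEACR peaks (spelt SECAR there) called on data merged from all samples of a group, and the signal values are scores of each peak that the authors' caller made from coverage, summed or at its highest. The columns follow SEACR's output order, and the sources used here do not give the caller's scaling, mode, control or threshold. The tools named in the submitters' processing notes were deepTools, bedtools 2.27.1, SAMtools 1.9 and Bowtie2 2.3.4.3, and the builds were sacCer3, GRCm38 and mm10. IgG and per-animal values were not analysed here.

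The 10 genes and the 9 further lists (158 genes, all found) were chosen with earlier results of these data known. Gene borders came from RefSeq GRCm38.p6 and transcription starts from its promoter table. Peaks were intersected with gene bodies plus 2 kb (at least 1 bp), and percentiles taken within a list, with Python 3.11.15, pandas 2.3.3 and numpy 2.4.6; the overlap code was tested on simulated data. Named from the further lists were all genes marked in 1 genotype, up to 4 with the widest peaks among those marked in both, and the 3 nearest genes on each side of a marked member. With 1 pooled list per genotype no p-value was computed.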

Additional observations from a re-analysis of the deposited data

How the results depend on the processing

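The counts of marked members (4 in each genotype) stayed between 3 and 5 in Utx-cKO and between 3 and 4 in WT under all alternatives. The Cd3 genes were marked under every one of them, but several alternatives could not have changed this. Wider flanks can only add marked genes. Equal numbers of peaks and a common floor of total signal (40307.2, the lowest value in WT) leave the WT list unchanged. These 2 settings and the top 50% of each list keep all Cd3 peaks, which ranked at percentile 55.0 or above. The value of 5 came from 10 kb flanks, which add Cd8a in Utx-cKO. All peaks at members stayed shared when 50% of the peak, or 50% of both peaks, had to overlap. They also stayed shared with the other list extended by 5 kb, which can only add shared peaks, and with the common floor. The median percentile of peaks at members, 64.6 in Utx-cKO and 66.5 in WT, was 71.0 and 57.5 by maximum signal, 67.0 and 61.1 by signal per base, and 66.0 and 67.6 among autosomal peaks, so the order of the genotypes depends on the measure. The medians are over unlike sets, 4 peaks in Utx-cKO and 3 in WT. The Utx-cKO set includes the Vax2 peak, while the WT one, at percentile 99.6 as well, begins outside the 2 kb window of Cd207. Covered length was 24.4% of the windows in Utx-cKO and 24.3% in WT with 2 kb flanks, and 23.2% and 22.9% of gene bodies alone. Of the counts of the other lists, 34 of 36 stayed within 1.5 times. These include the common floor in WT, which cannot change a count. In Utx-cKO the common floor lowered the melanocyte and Merkel cell count from 6 to 4 and the CD28 family count from 4 to 3. Both falls are within the limit of 1.5 times. The MHC class II pathway fell to 1 gene in Utx-cKO and 1 in WT with the gene body alone. The 1 kb flank and the removal of peaks over Vax2 were chosen after seeing the data. Leaving out a replicate was not possible because the lists pool the animals. No paired analysis was possible because the peak lists hold no value per animal.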

Other observations

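The loci of the T cell receptor itself were looked at after the genes above. The receptor gamma locus (Tcrg, chromosome 13, 19178042 to 19356476) held no peak in either list, and Trgv5, the variable segment of the gamma chain of dendritic epidermal T cells in the mouse, lay 692978 bp from the nearest peak in Utx-cKO and 693828 bp in WT. In the delta locus (Tcrd, chromosome 14, 53946073 to 54159198), which lies within the alpha locus, 44.9% of the length was covered by 4 peaks in Utx-cKO and 31.5% by 3 peaks in WT. Trdv4, the variable segment of the delta chain of the same cells, lay under a peak in both lists, at percentile 76.3 in Utx-cKO (54058701 to 54093950) and 72.0 in WT (54069951 to 54100550). The strongest peak overlapping the delta locus ran from 54152501 to 54196700 at percentile 95.0 in Utx-cKO and from 54152401 to 54199500 at percentile 92.2 in WT, 6393 bp and 6293 bp from the constant region Trdc. Most of this peak lies beyond the end of the delta locus, within the alpha locus, and the percentile is that of the whole peak. Over the alpha locus as a whole (Tcra, 1796232 bp), coverage was 8.93% in Utx-cKO and 5.98% in WT, and 35 and 38 of 166 annotated alpha segments were marked. The same rule marked 19.5% and 18.0% of all protein-coding genes, and no share over all gene segments was computed. The alpha locus held 5 peaks in Utx-cKO and 3 in WT, so neighbouring segments share peaks and are not independent observations. The beta locus (Tcrb, chromosome 6, 40891296 to 41558371) held 2 peaks in each list, at or below percentile 14.6 in Utx-cKO and 42.8 in WT, and covering 4.15% and 4.66%.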
